A study of Drosophila melanogaster with 15 samples.

Results

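The genes described here are named as those of the proteins of the cytosolic ribosome, measured in dissected brains and imaginal discs of Drosophila melanogaster larvae. They were chosen by name: every gene whose symbol begins with RpL or RpS followed by a digit, or is RpLP0, RpLP1, RpLP2 or sta, and which has a probe set annotated to it alone. The rule found 40 genes among the 11982 with such a probe set, and 34 of the 40 passed the filter on dim probe sets that left 6973 genes for testing. Where a gene had several probe sets, the one with the highest mean stands for it. Ribosomal protein genes without a probe set of 1 symbol in the platform's table are not analysed here.

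A ribosome joins a small subunit, which reads the mRNA, to a large subunit, which forms the peptide bonds, and each is built on ribosomal RNA with one copy of nearly every ribosomal protein. Growing cells make these proteins in matched amounts, and in Drosophila losing 1 of the 2 copies of many of their genes gives the Minute phenotype of slow development and short bristles. Proliferating discs and neuroblasts use ribosomes heavily, and cells short of a ribosomal protein can be eliminated by their neighbours, a process called cell competition. Some genes have a duplicate with its own tissue pattern, often in the germline.

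The study asked how gene expression changes in tissue without centrosomes or with too many. Tissue of wandering larvae in the 3rd instar, raised at 25 °C, was pooled from 10 larvae per sample and hybridised to Affymetrix Drosophila Genome 2.0 arrays, 15 in all. The 5 groups of 3 arrays are the DSas-4 mutant and the DSas-6 mutant, both described by the submitters as lacking centrosomes, the Sak overexpression strain (SakOE), described as having too many, and the wild types w67 (white wild type) and OregonR. DSas-4 and DSas-6 encode centriole assembly proteins and Sak a kinase that starts centriole duplication. The sources used here do not give the alleles, how Sak was overexpressed or the sexes of the larvae. Samples within a group are biological replicates by their labels.

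The probe set of Sas-4 averaged 4.79 ± 0.22 (SD, n = 3) in the DSas-4 mutant against 7.55 ± 0.16 in w67, and that of Sas-6 averaged 3.23 ± 0.09 in the DSas-6 mutant against 7.67 ± 0.08, so both fit their labels. These and all values below are log2 signals after each array was centred on the median of its tested genes, unless called deposited. The lowest deposited value took 4 different values over the 15 arrays and was shared by DSas-4 and w67, as if normalization had been run 4 times. DSas-4 against w67 thus lies within 1 such run, and in the other comparisons run and group cannot be told apart. On the deposited scale, all 7 brain and all 9 disc markers measured were above 7 on every array, and the 7 salivary gland and 2 muscle markers were under 4 throughout. Of the gut markers, 2 were above 4 only on OregonR replicate 3. The 6 haemocyte markers averaged from 5.37 to 6.90 over the DSas-4 arrays and from 4.20 to 4.49 over the DSas-6 arrays. None of the 5 that passed the filter was called against both wild types. Markers that were so called are repo, lower in DSas-4, pros, higher in DSas-6 and lower in SakOE, ey and so, lower in DSas-6 (so not on the deposited values), and the fat body gene apolpp, higher in DSas-4. Over 24 alternative settings the call of so against OregonR was lost in 11 and that of apolpp against w67 in 7. Those of pros in DSas-6 were lost in 2 against w67 and in 4 against OregonR. Of 4 ring gland genes, nvd was lower in DSas-4 (-1.06 and -0.92 from w67 and OregonR) and SakOE (-1.31 and -1.16), and dib was lower in SakOE. The dib call against OregonR was lost in 4 of 24 alternatives, and each nvd call in DSas-4 in 1. The 4 fat body genes averaged from 5.82 in OregonR to 6.47 in w67. The part of such differences in tissue makeup in the results below was not tested. In bulk tissue, fewer cells of a type and less RNA per cell cannot be told apart.

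Of the 40 ribosomal protein genes, 29 gave signals near the top of the array's scale. These 29 had a mean of at least 13, and the highest value on any array was 15.03. Whether signals so close to the top follow the amount of RNA in proportion was not tested. The brightest 5 were RpL41, which encodes the smallest ribosomal protein, RpL15, RpS18, RpS27A and RpS28b, with means from 14.92 downwards. The other 5 of the 34 tested were RpL34a at 12.82, RpL24-like at 12.01, RpL7-like at 11.54, RpS5b at 7.40 and RpS19b at 4.78. Signals of different probe sets are not on 1 scale of mRNA, so this order describes the arrays and not the transcripts.

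**Figure D1:**
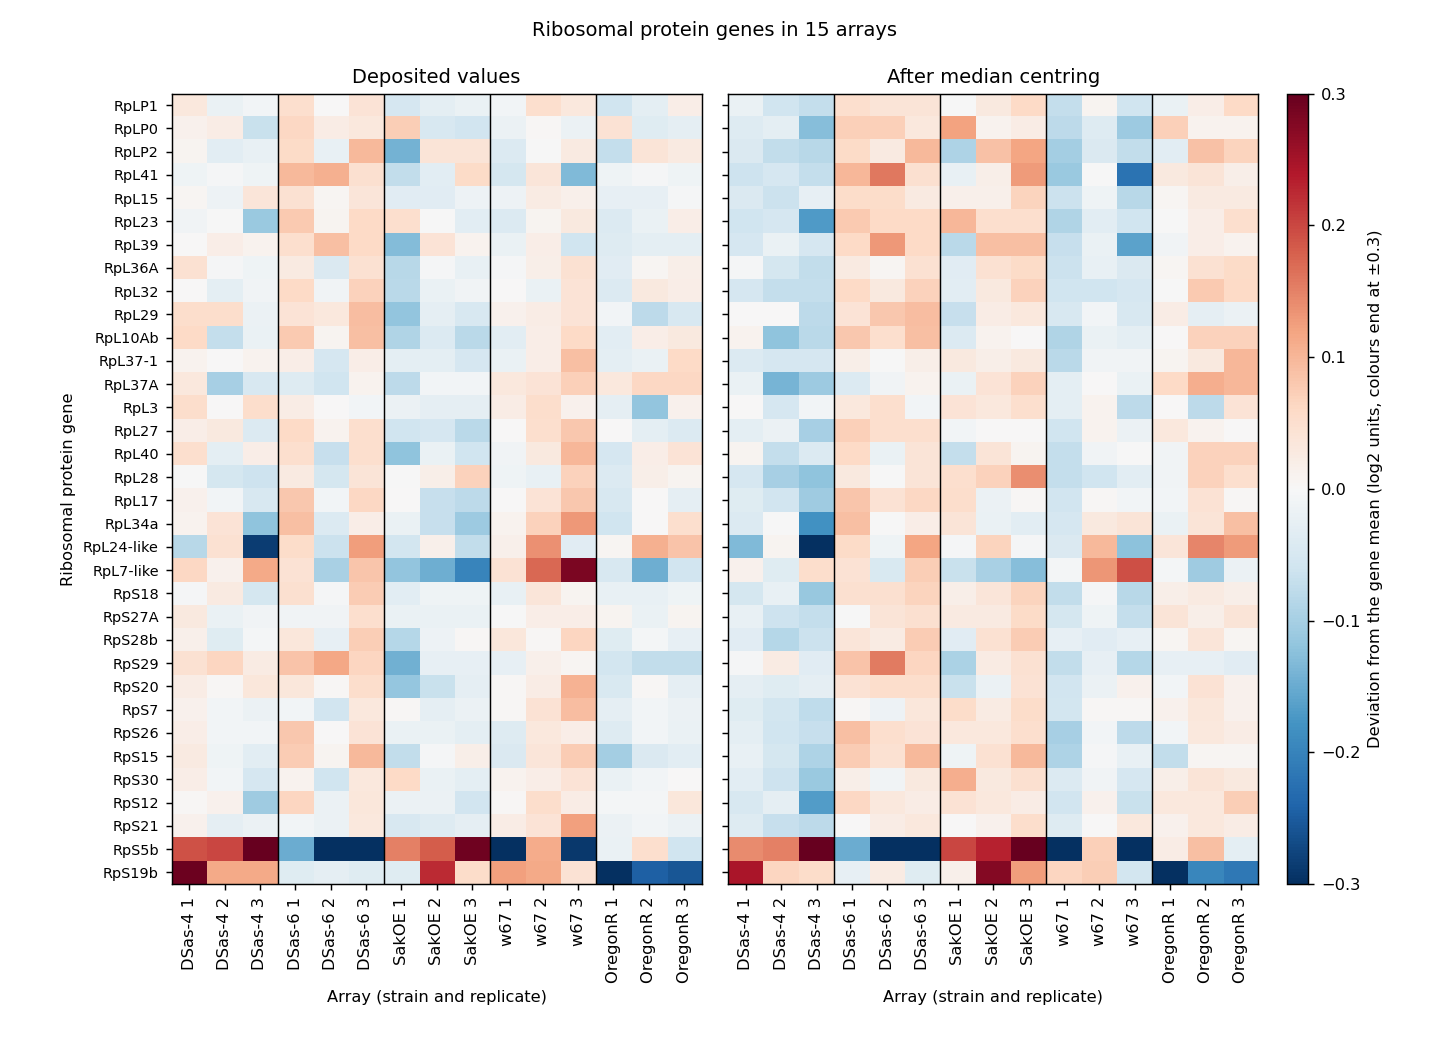
Heat maps of the 34 tested ribosomal protein genes (rows) over the 15 arrays (columns, by group), with deposited values on the left and centred values on the right, coloured by each log2 value minus the gene's mean, with colours ending at 0.3 either side of 0. Most rows are slightly lower on the DSas-4 and w67 arrays after centring and not before, and the strongest colours lie in RpS5b and RpS19b.

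No ribosomal protein gene was called in any of the 3 strains against both wild types. A call required an adjusted p under 0.05 (limma, Benjamini-Hochberg over the 6973 genes) in the same direction against w67 and against OregonR. The count was 0 of 34 in the DSas-4 mutant, where 3.43% of all tested genes were called. It was 0 of 34 in the DSas-6 mutant, beside 6.24%, and 0 of 34 in SakOE, beside 9.26%. At an unadjusted p under 0.05 against both wild types, the counts were 0, 1 and 0. Among all 6973 tested genes they were 726, 1026 and 1142. In this main fit limma moves each gene's own spread towards a value common to all genes. A further fit, called the intensity trend below, moves it towards a value that depends on signal. At the adjusted threshold the trend gave 0, 1 and 0, beside 3.54%, 6.32% and 9.21% of all genes. The single gene was RpS29 in the DSas-6 mutant. The counts of the main fit stayed at 0 when OregonR replicate 3 was left out, beside 2.8%, 4.76% and 7.34% of all genes.

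The 95% intervals of the 29 bright genes give the range of differences in signal that the arrays allow, which need not be that of the RNA so close to the top of the scale. In the DSas-4 mutant against w67 they ran from -0.17 to 0.17, which is 0.889-fold to 1.13-fold. Against OregonR their outermost bounds were -0.27 and 0.12. For the DSas-6 mutant the outermost bounds were -0.09 and 0.33 against w67, and -0.19 and 0.23 against OregonR. For SakOE they were -0.08 and 0.28 against w67, and -0.16 and 0.16 against OregonR. These intervals are not adjusted for the number of genes, and they hold for the centred values.

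The bright genes varied little between replicates. Their median SD within a group was 0.033, with a range from 0.022 to 0.065, against 0.057 for the 317 other genes with a mean of at least 12 and 0.093 for all tested genes. The 5 group means of a bright gene spanned a median of 0.119, against 0.15 for those 317 genes and 0.25 for all tested genes. An F-test for any difference among the 5 groups called 6 of the 34: RpL41, RpL23, RpL37A, RpL28, RpS5b and RpS19b. It called 40.2% of all tested genes and 27.4% of the 317. With the intensity trend it called 21 of the 34, beside 42.3% of all genes. In the main fit without SakOE replicate 1 the count was 10, beside 37.4%. On the deposited values the F-test called 4 of the 34, beside 52.1%, namely RpS29, RpL7-like, RpS5b and RpS19b. On centred values without OregonR replicate 3 it also called 4, beside 33.4%.

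The bright genes moved together from array to array, and how the groups lined up depended on the scaling. After centring, the per-array median over the ribosomal protein genes averaged 14.29 in DSas-4, 14.41 in DSas-6, 14.39 in SakOE, 14.30 in w67 and 14.36 in OregonR. The group means of DSas-4 and w67 both lay below those of the other 3 groups in 28 of the 29 bright genes, which share each array's centring value. The share of all tested genes in this order is not given here. On the deposited values the order held for 0 of 29, and the averages of the per-array median were 14.34, 14.40, 14.33, 14.36 and 14.32. The medians of all tested genes, which the centring removes, averaged from 8.71 in SakOE to 8.83 in w67 on the deposited scale. From w67 to SakOE the median difference over all genes was thus -0.118 on the deposited scale. The groups that line up after centring are also those that share a lowest deposited value.

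**Figure D2:**
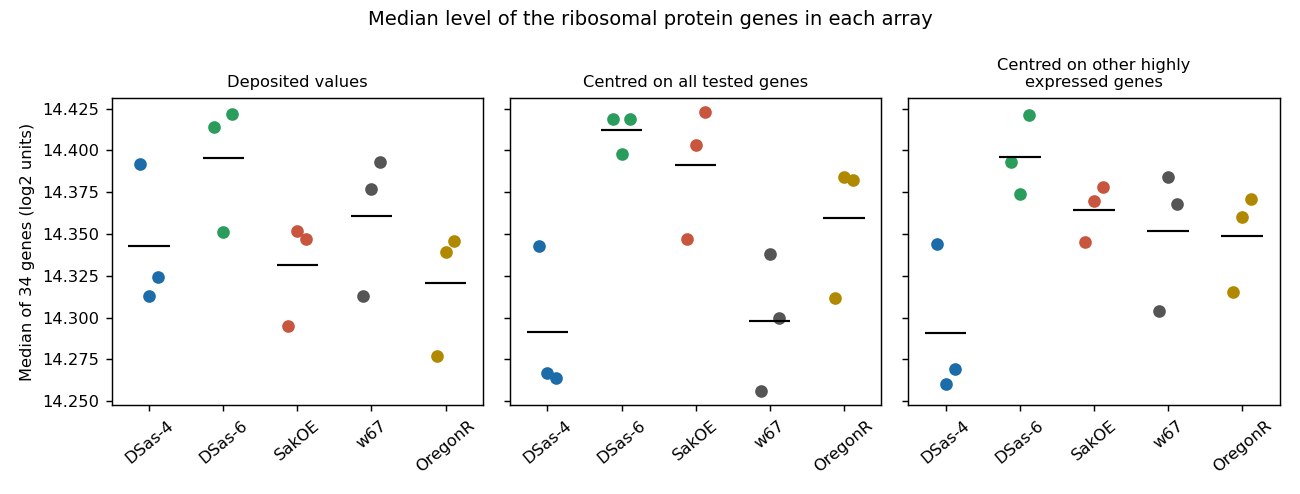
Median log2 signal over the 34 tested ribosomal protein genes on each array, by group, for deposited values, values centred on all tested genes and values centred on other bright genes. Points are arrays, bars are group means and the axis does not start at 0; the low position of w67 appears after centring on all genes and not in the other panels.

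Over all 34 genes the median difference from w67 was -0.012 in DSas-4, 0.078 in DSas-6 and 0.066 in SakOE, and from OregonR it was -0.081, 0.027 and 0.007. On the deposited values the medians were -0.022, -0.002 and -0.057 against w67, and 0.009, 0.049 and -0.014 against OregonR. The sign thus changed with the scaling in DSas-6 and SakOE against w67, and in DSas-4 and SakOE against OregonR. The median gene of all 6973 differed by between -0.014 and 0.005 in these 6 comparisons after centring. That closeness to 0 follows from the centring, which uses the median of the same genes, so it is no independent background. On the deposited values the median gene differed by between -0.118 and 0.083. The 6 comparisons share their control arrays. The pairwise correlation of the 29 bright genes over the 15 arrays had a median of 0.69 after centring and 0.48 on deposited values. It was 0.37 once group means were removed, as a description of points that share arrays and scaling.

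**Figure D3:**
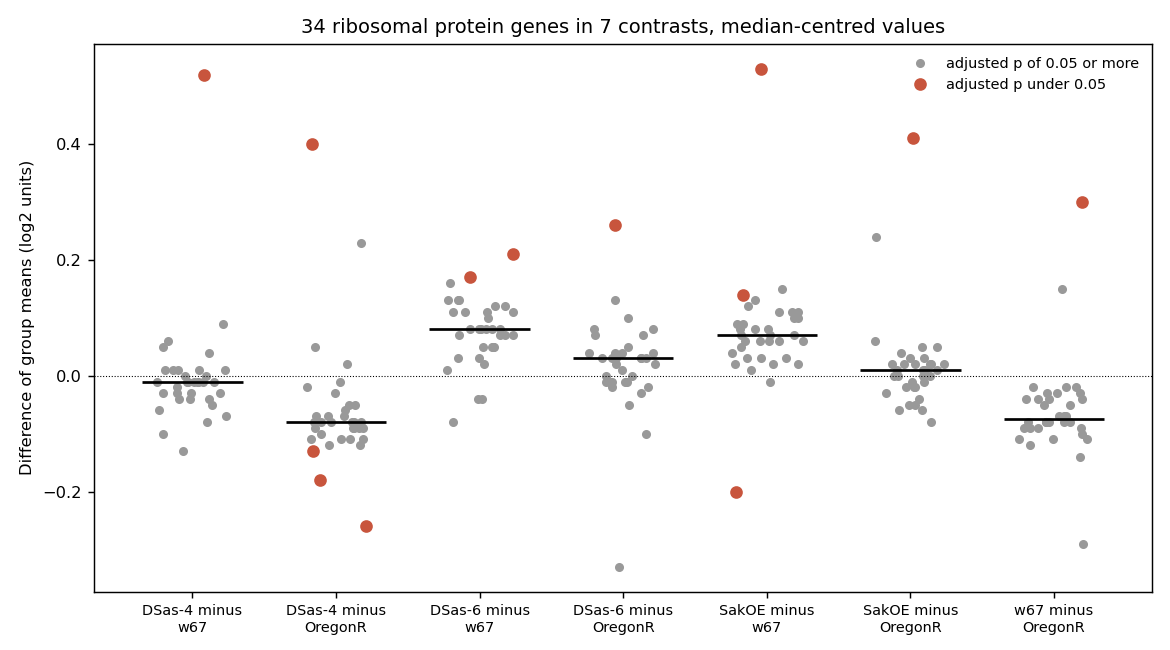
Differences of group means (log2, centred values) of the 34 ribosomal protein genes in each strain against each wild type and in w67 against OregonR. Points are genes, larger red points have an adjusted p under 0.05, lines are medians, and the called points farthest from 0 are RpS5b at 0.52 and 0.53 and RpS19b at 0.40 and 0.41.

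The acidic stalk, which recruits elongation factors to the large subunit, consists of RpLP0 and the paired RpLP1 and RpLP2. RpLP0 measured 14.49, 14.50 and 14.40 in DSas-4, 14.60, 14.60 and 14.56 in DSas-6, 14.65, 14.54 and 14.55 in SakOE, 14.45, 14.49 and 14.42 in w67, and 14.60, 14.54 and 14.54 in OregonR. The DSas-6 and SakOE arrays lay above all w67 arrays and overlapped the OregonR arrays. RpLP0 differed from w67 by 0.13 (SE 0.046, adjusted p = 0.0735) in DSas-6 and by 0.12 (adjusted p = 0.0837) in SakOE, neither past the threshold. With the intensity trend both passed (adjusted p = 0.0312 and 0.0354). Over the 3 stalk genes the difference of DSas-4 from w67 lay between -0.01 and 0.01.

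RpL41, a very short peptide of the large subunit, passed in 1 of the 6 comparisons. It measured 15.02, 15.08 and 14.97 in DSas-6, 14.81, 14.92 and 14.70 in w67, and 14.95, 14.96 and 14.94 in OregonR. All 3 DSas-6 arrays were above all arrays of both wild types. The difference was 0.21 from w67 (SE 0.057, adjusted p = 0.0281) and 0.07 from OregonR (adjusted p = 0.45). Against w67, 2 of 34 ribosomal protein genes passed in DSas-6, beside 14.3% of all genes. With the intensity trend 11 passed, beside 14.6%, all of them higher: RpL41, RpL15, RpS18, RpL23, RpS29, RpL39, RpLP0, RpL32, RpL29, RpS26 and RpL10Ab. With the probe sets of a gene averaged, 8 passed, beside 15.1%. None of the 34 passed on the deposited values, beside 21.4% of all genes, and their median difference there was -0.002. On the deposited values the difference of RpL41 was 0.13 (adjusted p = 0.0715), and after quantile normalization it was 0.00. The call was also lost without DSas-6 replicate 1 or 2 or without w67 replicate 1 or 3, and over 24 alternatives the difference ran from 0.00 to 0.27 and the adjusted p from 0.00462 to 1.

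The other was RpS29, a small zinc-binding protein of the small subunit. It measured 14.65, 14.72 and 14.63 in DSas-6, 14.49, 14.54 and 14.48 in w67, and 14.54, 14.54 and 14.53 in OregonR. Again the DSas-6 arrays were above all 6 wild-type arrays. The difference was 0.17 from w67 (SE 0.046, adjusted p = 0.0299) and 0.13 from OregonR (adjusted p = 0.0736). On the deposited values it was 0.09 (adjusted p = 0.149) and 0.15 (adjusted p = 0.026), so a different wild type passed. The call against w67 was also lost without DSas-6 replicate 1 or 2 or without w67 replicate 1 or 3, with adjusted p from 0.00247 to 0.407 over 24 alternatives. A further probe set of RpS29, also bright, differed by -0.04 and -0.14, in the other direction.

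Against OregonR, 4 of the 34 passed in the DSas-4 mutant, beside 17.9% of all genes. With the intensity trend 11 passed, beside 18.3%: RpS19b was higher, and RpS27A, RpL23, RpL32, RpS30, RpL37-1, RpL37A, RpS12, RpL28, RpS21 and RpL24-like were lower. Only 1 passed on the deposited values, beside 24.9% of all genes. RpL37A, a large-subunit protein, measured 14.20, 14.08 and 14.11 in DSas-4 and 14.28, 14.33 and 14.32 in OregonR. The arrays did not overlap, and the difference was -0.18 (SE 0.043, adjusted p = 0.0137). It was -0.07 from w67 (adjusted p = 0.427), and -0.09 from OregonR on the deposited values (adjusted p = 0.16). The call was also lost without OregonR replicate 2 or 3, with adjusted p from 0.00077 to 0.18 over 24 alternatives. RpL28, also of the large subunit, was lower by a difference of -0.13 (adjusted p = 0.0479), which was -0.04 on the deposited values. That call was lost in 19 of 24 alternatives, and it stood when DSas-4 replicate 1, SakOE replicate 3 or OregonR replicate 1 was left out and fell when any other array was, with adjusted p from 0.00226 to 0.668. The others were RpL24-like and RpS19b, described below.

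RpL28 also passed in SakOE against w67, where 3 of 34 passed beside 17.1% of all genes. With the intensity trend 11 passed, beside 18%, of which RpL7-like was lower and RpL41, RpL15, RpS18, RpS27A, RpL23, RpLP0, RpS26, RpS30, RpL28 and RpS5b were higher. With probe sets averaged 8 passed, beside 18.6%. It measured 14.02, 14.04 and 14.11 in SakOE, 13.90, 13.91 and 13.94 in w67, and 13.96, 14.04 and 14.02 in OregonR. The SakOE arrays were above those of w67 and reached into those of OregonR. The difference from w67 was 0.14 (SE 0.041, adjusted p = 0.0313), and 0.02 on the deposited values. The call was lost in 10 of 24 alternatives, among them leaving out SakOE replicate 2 or 3 or any w67 array, with adjusted p from 0.000962 to 0.83. The other genes were RpL7-like and RpS5b.

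RpL39, another small protein at the peptide tunnel, had a span of group means of 0.16, and its difference between DSas-6 and w67 was 0.16 (adjusted p = 0.0551, and 0.0258 with the intensity trend). Without SakOE replicate 1 it also passed the F-test. RpL23, of the large subunit, passed the F-test. It passed no comparison with a wild type in the main fit. With the intensity trend it passed in DSas-4 against OregonR (adjusted p = 0.0279), in DSas-6 against w67 (adjusted p = 0.0224) and in SakOE against w67 (adjusted p = 0.0188). It measured 14.54, 14.55 and 14.43 in DSas-4, 14.68, 14.66 and 14.66 in DSas-6, 14.70, 14.65 and 14.65 in SakOE, 14.51, 14.57 and 14.54 in w67, and 14.60, 14.62 and 14.65 in OregonR. The DSas-4 and w67 arrays lay below the rest without overlap. The F-test gave an adjusted p of 0.0213.

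Other members with a defined place passed no comparison with a wild type in the main fit. RpL3, which reaches towards the site of peptide bond formation, differed by 0.01 from w67 in DSas-4, 0.05 in DSas-6 and 0.07 in SakOE. RpL10Ab, of the L1 stalk, differed by -0.01, 0.12 and 0.03. RpS26, at the exit of the mRNA channel, differed by 0.01, 0.12 and 0.10. RpS12, which in Drosophila is needed for cell competition against Minute cells, differed by -0.04, 0.08 and 0.07, with intervals between -0.14 and 0.17. With the intensity trend RpL10Ab passed in DSas-6 against w67 (adjusted p = 0.0354), RpS26 in DSas-6 and SakOE against w67 (adjusted p = 0.0125 and 0.0242) and RpS12 in DSas-4 against OregonR (adjusted p = 0.0272).

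RpS27A and RpL40 are made as fusions with ubiquitin and RpS30 with a ubiquitin-like protein. RpS27A differed from w67 by -0.01 in DSas-4, 0.07 in DSas-6 and 0.08 in SakOE. RpL40 differed by -0.01, 0.05 and 0.02, and none of the 3 fusion genes passed against a wild type in the main fit. With the intensity trend RpS27A passed in DSas-4 against OregonR (adjusted p = 0.031) and in SakOE against w67 (adjusted p = 0.0394), and RpS30 in the same comparisons (adjusted p = 0.0374 and 0.0366).

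RpL32, known as rp49, is the customary reference gene of quantitative PCR in Drosophila. It measured 14.42, 14.40 and 14.40 in DSas-4, 14.53, 14.50 and 14.54 in DSas-6, 14.44, 14.50 and 14.54 in SakOE, 14.41, 14.41 and 14.42 in w67, and 14.47, 14.55 and 14.53 in OregonR. Its largest difference from a wild type was 0.11 in size, in DSas-6 against w67 (adjusted p = 0.0777) and in DSas-4 against OregonR (adjusted p = 0.0746), and both passed with the intensity trend (adjusted p = 0.024 and 0.0227). The wild types differed by -0.10 (adjusted p = 0.148), and by 0.00 on the deposited values.

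RpL7-like and RpL24-like are named for their likeness to ribosomal proteins, and their yeast relatives Rlp7 and Rlp24 are assembly factors of the large subunit. The rule takes both in by name, so the counts of ribosomal protein genes include them. RpL7-like measured 11.47, 11.44 and 11.41 in SakOE, 11.53, 11.67 and 11.73 in w67, and 11.53, 11.43 and 11.52 in OregonR. SakOE was below all w67 arrays and overlapped OregonR. The difference was -0.20 from w67 (SE 0.056, adjusted p = 0.0251) and -0.05 from OregonR (adjusted p = 0.563). It fell short of the threshold without SakOE replicate 2 or 3 or without w67 replicate 2 or 3, with adjusted p from 0.00272 to 0.105 over 24 alternatives.

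RpL24-like measured 11.88, 12.02 and 11.67 in DSas-4, 11.97, 12.11 and 11.89 in w67, and 12.05, 12.16 and 12.14 in OregonR. DSas-4 lay below OregonR without overlap and overlapped w67. The difference was -0.26 from OregonR (SE 0.081, adjusted p = 0.0444) and -0.13 from w67 (adjusted p = 0.432). The call against OregonR was lost in 15 of 24 alternatives, among them the deposited values and the omission of any array other than DSas-4 replicate 2 and w67 replicates 2 and 3. The adjusted p ran from 0.0148 to 0.176.

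RpS5b, a duplicate of a small-subunit gene known to be enriched in the ovary, showed the widest span of group means among the ribosomal protein genes. It measured 7.54, 7.55 and 7.89 in DSas-4, 7.25, 7.01 and 7.04 in DSas-6, 7.60, 7.63 and 7.77 in SakOE, 6.93, 7.47 and 7.02 in w67, and 7.42, 7.49 and 7.37 in OregonR. The DSas-4 and SakOE arrays were above every array of the other 3 groups, and w67 replicate 2 stood apart from its group.

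Against w67 the difference of RpS5b was 0.52 in DSas-4 (SE 0.131, adjusted p = 0.0391) and 0.53 in SakOE (adjusted p = 0.0149). It was the 1 ribosomal protein gene of 34 that passed in DSas-4 against w67, beside 4.6% of all genes. Against OregonR it was 0.23 (adjusted p = 0.228) and 0.24 (adjusted p = 0.237). The DSas-4 call was lost in 13 of 24 alternatives, among them the omission of DSas-4 replicate 2 or 3, w67 replicate 1 or 3, DSas-6 replicate 3, SakOE replicate 1 or 2 or any OregonR array, with a difference from 0.41 to 0.69 and adjusted p from 0.00363 to 0.15. The SakOE call was lost without SakOE replicate 3, w67 replicate 1 or w67 replicate 3, with adjusted p from 0.00124 to 0.064. Set directly against the DSas-6 mutant, RpS5b was higher by 0.56 in DSas-4 (adjusted p = 0.0102) and by 0.57 in SakOE (adjusted p = 0.00979), and both held in all 23 alternatives run. Between strains, 6 of 34 passed in DSas-4 against DSas-6, beside 21.3% of all genes, 3 in SakOE against DSas-4, beside 21.8%, and 1 in SakOE against DSas-6, beside 17%. The ovary markers vas and osk were at or near the lowest value on every array. Another germline gene, bam, averaged 3.82 in DSas-4, 2.82 in DSas-6, 2.81 in SakOE, 3.45 in w67 and 3.30 in OregonR, all under 4.

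RpS19b, a germline-enriched duplicate, was dim and differed between the wild types. It measured 5.02, 4.84 and 4.83 in DSas-4, 4.75, 4.80 and 4.74 in DSas-6, 4.79, 5.05 and 4.90 in SakOE, 4.84, 4.85 and 4.72 in w67, and 4.36, 4.58 and 4.56 in OregonR. The OregonR arrays were below all others. Against OregonR the difference was 0.40 in DSas-4 (adjusted p = 0.00455), 0.41 in SakOE (adjusted p = 0.0025), 0.26 in DSas-6 (adjusted p = 0.0413) and 0.30 in w67 (adjusted p = 0.0332). It was the 1 of 34 that passed in DSas-6 and in SakOE against OregonR, beside 14.6% and 18.2% of all genes, and the 1 that passed between the wild types, beside 7.13%. The DSas-4 and SakOE calls held in all 23 alternatives, and those of DSas-6 and w67 were lost in 11 and 7. The DSas-6 call did not survive the omission of any DSas-6 or OregonR array, SakOE replicate 3 or w67 replicate 1 or 2 (adjusted p from 0.0165 to 0.144). The w67 call did not survive that of OregonR replicate 1 or 3 or w67 replicate 1 or 2 (adjusted p from 0.0041 to 0.154). None of the 3 strains passed against w67.

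**Figure D4:**
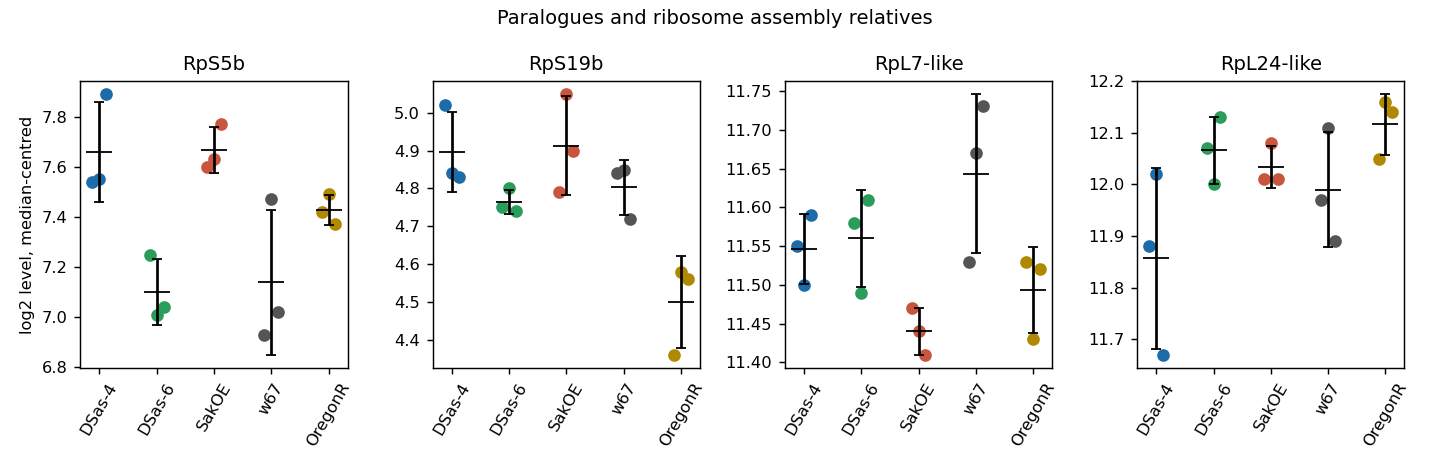
Centred log2 signal of RpS5b, RpS19b, RpL7-like and RpL24-like on each array, by group, with the mean and SD of each group and a separate axis per gene, none starting at 0. RpS5b is highest in DSas-4 and SakOE, and RpS19b is lowest in OregonR.

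A further 6 genes, all duplicates of other ribosomal protein genes by name, were under 4 on all 15 arrays and were not tested. RpL22-like, known from the testis, had deposited values from 2.20 to 2.58, the widest of the 6. RpL10Aa lay from 2.20 to 2.25, RpL37-2 from 2.18 to 2.31, RpS10a from 2.17 to 2.19, RpS28-like from 2.18 to 2.25 and RpS28a from 2.18 to 2.20. The partner genes RpL10Ab, RpL37-1 and RpS28b were among the bright ones, at means of at least 14. The partners of RpS5b, RpS19b and RpL22-like are not analysed here. Of 6 testis markers on the deposited scale, bol, dj and Mst87F were under 4 on every array and betaTub85D on 12 of 15, while twe lay from 5.02 to 5.64 and CycB3, a cyclin that dividing cells also use, from 9.10 to 9.90. By chromosome arm, 14 of the 40 genes lie on 3R, 9 on 2L, 9 on 2R, 5 on 3L and 3 on X.

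For 4 genes the array held more than 1 probe set, and RpL3 and RpS29 each have 3. The dimmest of RpS29 was under 4 on 13 of 15 arrays and was not fitted. The brightest gave the values above, while a probe set near 9.7 measured 9.39, 9.55 and 9.35 in SakOE, 9.75, 9.67 and 9.69 in w67, 9.92, 9.88 and 9.94 in OregonR, 9.77, 9.91 and 9.67 in DSas-4, and 9.87, 9.95 and 9.94 in DSas-6. The SakOE arrays were below every other array. The difference was -0.27 from w67 (adjusted p = 0.0114 over 7499 probe sets) and -0.48 from OregonR (adjusted p = 0.000196), and both held in all 16 alternatives run. The brightest probe set differed by 0.07 and 0.05 in SakOE. In DSas-6 the probe set near 9.7 differed by 0.21 from w67 (adjusted p = 0.0403), a call lost in 10 of 16 alternatives. The dimmest RpL3 probe set, near 6, differed in SakOE by 0.32 and -0.32, with neither past the threshold, and w67 was its lowest group. It differed by -0.64 between w67 and OregonR (adjusted p = 0.0204), by 0.73 between DSas-6 and w67 (adjusted p = 0.0066) and by 0.09 between DSas-6 and OregonR (adjusted p = 0.74). The call between the wild types was lost without OregonR replicate 1 or 3 or w67 replicate 2 or 3 (adjusted p up to 0.0849). That of DSas-6 against w67 held in all 16 alternatives. Over all 7499 probe sets, 17.2% passed in SakOE against w67, 18.4% in SakOE against OregonR, 15.4% in DSas-6 against w67 and 7.51% in w67 against OregonR.

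**Figure D5:**
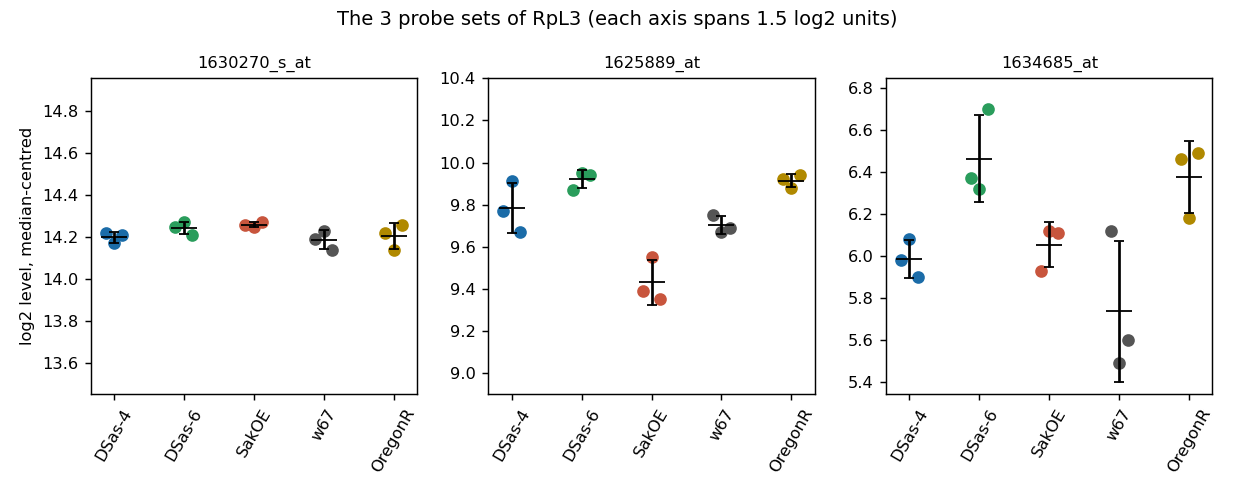
Centred log2 signal of the 3 RpL3 probe sets on each array, by group, with the mean and SD, on axes of equal span that do not start at 0. The middle probe set is lowest in SakOE, while the brightest does not separate the groups.

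A dim probe set of RpS7, under 4 on all DSas-6 and SakOE arrays, averaged 4.09 ± 0.01 in DSas-4, 3.65 ± 0.08 in DSas-6, 3.73 ± 0.09 in SakOE, 4.10 ± 0.12 in w67 and 4.64 ± 0.25 in OregonR (SD, n = 3). It passed the filter only through the other 3 groups, so no difference is drawn from it. The bright probe set of RpS7 passed in no comparison with a wild type. The further probe set of RpS30, near 6, did not pass either. The 3 probe sets that name a ribosomal protein gene together with another gene lie outside the rule.

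Around the ribosomal proteins, ribosome biogenesis genes hold the factors that transcribe and assemble the ribosomal RNA. Of 41 tested, 0 were called against both wild types in DSas-4, 2 were higher and 2 lower in DSas-6, and 2 were lower in SakOE, beside 3.43%, 6.24% and 9.26% of all genes. Brf and Polr1H were lower in both strains. Brf, which helps to place RNA polymerase III at its genes, averaged 4.87 in SakOE and 7.48 in DSas-6 against 7.81 in w67 and 8.33 in OregonR. Polr1H, an RNA polymerase I subunit, averaged 4.20 and 4.19 against 4.63 and 4.86. The higher genes in DSas-6 were Mybbp1A, at 7.69 against 7.33 and 7.24, and Polr1A, at 9.25 against 9.06 and 9.03, the latter not called on the deposited values. Against w67, Mybbp1A fell short when w67 replicate 2 or either of DSas-6 replicates 1 and 2 was left out (adjusted p up to 0.0714), and Brf in DSas-6 without DSas-6 replicate 1 or w67 replicate 3 (adjusted p up to 0.0542). Polr1A against w67 was lost in 8 of 24 alternatives, among them the omission of any DSas-6 array or w67 replicate 1 or 2 (adjusted p up to 0.195), and against OregonR without OregonR replicate 3. The calls of Polr1H, and those of Brf in SakOE, held in every alternative run. Of 36 translation factors tested, 0 were called in DSas-4 and 0 in SakOE, beside 3.43% and 9.26% of all genes. In DSas-6, 2 were higher and 1 lower. They were eIF2Bepsilon, part of the exchange factor that recharges initiation factor 2, at 9.83 against 9.52 and 9.64, larp at 11.11 against 10.91 and 10.79, and eIF3e at 12.14 against 12.29 and 12.28. For DSas-6 these counts stand beside 6.24% of all genes. The calls of larp and eIF3e were absent on the deposited values, and both of larp with probe sets averaged (0.08 from w67 and 0.12 from OregonR). Against w67 larp also fell short without DSas-6 replicate 2, SakOE replicate 2 or w67 replicate 1 or 2, with adjusted p up to 0.523. The eIF3e call against OregonR was lost in 18 of 24 alternatives, including the omission of any array other than DSas-6 replicate 3 and w67 replicate 2, with adjusted p up to 0.159, and that against w67 in 7. The eIF2Bepsilon call against OregonR was lost without DSas-6 replicate 2 or OregonR replicate 2, with adjusted p up to 0.0588.

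Among 19 growth and Minute response regulators tested, 0 were called in DSas-4, 1 in DSas-6 and 2 in SakOE, beside the same 3 shares of all genes. Akt, a kinase of insulin signalling, averaged 11.60 in DSas-6 against 10.91 and 10.93. In SakOE, gig, the fly TSC2 and a brake on Tor, averaged 8.75 against 9.06 and 9.16, and PEK, a kinase of the integrated stress response, averaged 10.50 against 10.25 and 10.22, the latter not called on the deposited values. Against w67, gig fell short without SakOE replicate 1 or 2 or w67 replicate 2 (adjusted p up to 0.0739), and PEK without SakOE replicate 3. Irbp18, the partner of Xrp1 in the Minute response, was higher than in OregonR by 0.32 in SakOE (adjusted p = 0.00146) and by 0.26 in DSas-6 (adjusted p = 0.00838), and passed against w67 in none of the 3 strains. The wild type w67 was itself higher than OregonR by 0.22 (adjusted p = 0.0356), a call lost in 7 of 24 alternatives, with OregonR the lowest of the 5 groups. S6k, which acts below Tor, passed in no comparison with a wild type, and Xrp1, Myc and Thor are not analysed here.

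The 69 mitochondrial ribosomal protein genes, which build a separate ribosome, had 2 lower genes in DSas-4, 0 called in DSas-6, and 1 higher and 1 lower in SakOE, beside 3.43%, 6.24% and 9.26% of all genes. mRpS18A averaged 9.76 in DSas-4 and 9.92 in SakOE against 10.36 in w67 and 10.40 in OregonR. mRpL20 averaged 9.69 in DSas-4 against 10.06 and 10.03, and was not called on the deposited values, nor without DSas-4 replicate 1 or 3, any w67 array or OregonR replicate 2 or 3 (adjusted p up to 0.116). mRpS31 averaged 9.79 in SakOE against 9.21 and 9.25. The F-test called 13 of these 69 and 6 of the 34 cytosolic genes, beside 40.2% of all tested genes.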

How the data were processed

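The deposited values are log2 expression per probe set, which per the submitters' processing notes were made with GCRMA and limma; versions and the log base are not given in the sources used here, and log2 was taken from the method and the range. Of 18952 probe sets, 13647 have 1 gene symbol, and 13544 of these were found in the RefSeq table of Release 6. Probe sets reaching 4 on at least 3 arrays were kept, the one with the highest mean per gene, which left 6973 genes. Each array was centred on the median of these. A group-means model of the 15 arrays was then run in limma 3.58.1 (lmFit, eBayes; R 4.3.3), with two-sided tests, Benjamini-Hochberg adjustment within each contrast and a threshold of 0.05. The fit was tested on simulated data. On arrays the number of replicates, 3 per group, limits the precision. Further probe sets were fitted together, 7499 in all. No sample was left out or imputed.

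Members, gene lists and tests were chosen with earlier results of these data known. The text names the members called or with the widest span of group means, the brightest and dimmest, duplicates with their partners, members with a defined role, and called genes of the other lists. The members given for their role were chosen after their values were seen. Alternatives were the deposited values, centring on other bright genes, quantile normalization, the filter, all probe sets averaged, an intensity trend, the compared groups alone, a replicate block and leaving out each array. Comparisons between strains and the fit of further probe sets were added after values were seen. p-values measure the spread between these samples.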

Additional observations from a re-analysis of the deposited data

Results flagged for a closer look

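Some ribosomal protein genes differed between 2 of the strains when these were set directly against each other, a comparison added after values were seen. In DSas-4 minus DSas-6, 6 of 34 passed, beside 21.3% of all tested genes: RpS18 with -0.12, RpL23 with -0.16, RpL32 with -0.12, RpL10Ab with -0.14, RpL17 with -0.13 and RpS5b with 0.56. In SakOE minus DSas-4, 3 passed, beside 21.8%: RpL23 with 0.16, RpS30 with 0.13 and RpL28 with 0.18. In SakOE minus DSas-6, 1 passed, beside 17%, which was RpS5b with 0.57. On the deposited values and after quantile normalization each of these calls was lost except those of RpS5b.

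Probe sets that the comparisons of genes did not use also differed from w67. For a dim probe set of RpS7 the fitted differences were -0.44 in DSas-6 and -0.37 in SakOE, but all arrays of both strains lay under the filter level of 4, so these are no measured decreases. The middle probe set of RpL3 differed by -0.27 in SakOE. A probe set annotated with several symbols, 1 of them a ribosomal protein gene, differed by 1.32 in SakOE (adjusted p = 0.000256), and its signal cannot be assigned to 1 gene.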

How the results depend on the processing

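The counts of 0 called against both wild types stayed at 0 in DSas-4 and SakOE under every alternative run. In DSas-6 the count was 1 with an intensity trend (RpS29), beside 6.32% of all genes. It was 1 with all probe sets averaged (RpS7, whose mean then includes a probe set under 4 in DSas-6), beside 6.72%. With no filter it was 2 (RpS29 and RpL37-2), beside 6.71%, and RpL37-2 had deposited values from 2.18 to 2.31. Without the filter, genes at the lowest value of an array are tested too. That value differs between all groups but DSas-4 and w67, so such genes can pass without a measured difference. No difference in expression is therefore drawn from the counts with no filter. The F-test called 21 with the trend (42.3%), 13 with probe sets averaged (42% of all genes), 34 of 40 with no filter (68.2% of all genes) and 3 after quantile normalization (39.7%). Leaving out 1 array gave 4 to 10, with 33.4% of all genes called without OregonR replicate 3 and 37.4% without SakOE replicate 1. Between the wild types 2 were called with centring on bright genes (10.2% of all genes) and 2 on deposited values (15.7%). The count was 0 with a filter at 6 (5.16%), 0 with the trend (6.83%) and 0 after quantile normalization (7.72%). With probe sets averaged 3 were called (7.25%), and with no filter 22 (47.2%). It was 0 with the compared groups alone and 0 to 1 when leaving out 1 array.

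In single comparisons the trend called 11 each in DSas-4 minus OregonR, DSas-6 minus w67 and SakOE minus w67 (18.3%, 14.6% and 18% of all genes). No filter called 27, 25 and 19 of 40 there (53.2%, 49.5% and 52.7%), and 5 in DSas-6 minus OregonR (12.5%). In DSas-4 minus w67, which share a lowest value, it called 0 of 40 (2.32%). Leaving out 1 array gave 1 to 4, 0 to 3 and 0 to 5 in the 3 comparisons named first. With all arrays, 17.9%, 14.3% and 17.1% of all genes passed in them. In DSas-4 minus OregonR the count was 1 without OregonR replicate 2 or 3, beside 10.1% of all genes without replicate 3. In DSas-6 minus w67 it was 0 without w67 replicate 1 or 3 or without DSas-6 replicate 1 or 2. In SakOE minus w67 it was 0 without SakOE replicate 3 or w67 replicate 3.

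The median difference moved as follows. For DSas-4 minus OregonR it was 0.009 on deposited values and -0.016 after quantile normalization, and for DSas-4 minus w67 it was -0.066 with centring on bright genes. With centring on bright genes, deposited values and quantile normalization it was 0.008, -0.002 and 0.004 for DSas-6 minus w67, -0.015, -0.057 and 0 for SakOE minus w67, and -0.01, 0.027 and -0.002 for w67 minus OregonR. Leaving out 1 array gave -0.092 to -0.063 for DSas-4 minus OregonR, -0.03 to -0.001 for DSas-4 minus w67, 0.011 to 0.028 for DSas-6 minus OregonR, 0.068 to 0.099 for DSas-6 minus w67, -0.007 to 0.017 for SakOE minus OregonR, 0.056 to 0.091 for SakOE minus w67 and -0.084 to -0.059 for w67 minus OregonR.

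Of single genes, 7 results reversed, which means that the sign changed and the alternative passed the threshold. None of the 7 was called in the main fit, where the differences were small. With probe sets averaged, RpL3 went from 0.02 to -0.28 in SakOE minus DSas-6 and from 0.05 to -0.23 in SakOE minus OregonR. RpS29 went from 0.02 to -0.21 in DSas-4 minus OregonR. RpS7 went from -0.06 to 0.18 in DSas-4 minus DSas-6, from 0.03 to -0.2 in DSas-6 minus w67 and from 0.02 to -0.42 in SakOE minus OregonR. On deposited values RpS20 went from 0.01 to -0.11 in SakOE minus w67. Averaging adds the dimmer probe sets, and other causes were not tested. For RpS7 it adds the probe set under the filter level on all DSas-6 and SakOE arrays, so no difference is drawn from its averages. For RpS29 it adds a probe set under 4 on 13 of 15 arrays, with deposited means of 3.50 in DSas-4 and 3.93 in OregonR. No difference is drawn from the averages of RpS29 either. Replicate numbers did not pair the samples: deviations of same-numbered samples correlated at a median of -0.05 over 30 pairs. With the replicate block the F-test called 4, beside 36.3% of all genes, and the wild types differed in 1 gene, beside 6.5%. The counts against both wild types were then 0 in DSas-4, DSas-6 and SakOE, beside 3.1%, 5.72% and 8.59%.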
